A study of Drosophila melanogaster with 2 samples.

Results

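The genes for the proteins of the cytoplasmic ribosome were examined in a chromatin immunoprecipitation sequencing (ChIP-seq) map of the T-box transcription factor org-1 in Drosophila melanogaster embryos. They were chosen with earlier results of these data known. The rule took, by symbol, protein-coding genes named RpL or RpS with a number, and RpLP0, RpLP1, RpLP2 and sta. Symbols ending in -like were left out. The rule gave 88 of the 13945 protein-coding genes on the chromosome arms, 50 for the large and 38 for the small subunit. The study holds 1 group of 2 biological replicates, whole embryos of both sexes pooled, aged 2 to 24 hours, from a line that stably expresses org-1 with green fluorescent protein at its C-terminal end. Per the labels' description the precipitation used an antibody against that tag, although the antibody field reads org-1. No untagged embryos and no second condition were analysed here, so no value compares conditions and no test over samples was possible. In whole embryos, strong binding in few cells and weak binding in many cannot be told apart.

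Ribosomal proteins assemble with ribosomal RNA into a large subunit, which joins amino acids, and a small subunit, which reads the messenger RNA. Their genes are among the most highly transcribed in growing cells, and in Drosophila the loss of a single copy of many of them gives the Minute phenotype of slow growth and thin bristles. Many of their promoters start transcription within a stretch of pyrimidines, the polypyrimidine or TCT initiator, and are known to use the TBP-related factor Trf2, while the zinc finger protein M1BP and the factor DREF have also been linked to them. Org-1, a relative of vertebrate Tbx1, is known for its part in muscle founder cells.

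The deposited optimal list holds 4434 peaks, each with a summit (the base of highest signal) and the authors' signal value, which ran from 101 to 2560 with a median of 164. Longer lists of 30000 candidate regions cover each replicate and the pooled reads, with lowest signals of 14.96 in replicate 1, 14.3 in replicate 2 and 24.0 in the pool. The files used give no read counts, so the depth is unknown. Pooled signal at the members was 0.997 times the sum of both replicates' values in the median (from 0.867 to 1.09, n = 56), so the pooled value is no measurement apart from them.

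The start sequences shown first hold the polypyrimidine initiator at members with a summit, the initiator at members without one, and the 2 members with the strongest peaks, which lack it. Each has 15 bases before the start and 15 from the start on, read 5′ to 3′ on the coding strand of genome release 6 (dm6, RefSeq). Capitals mark the polypyrimidine words, searched on the coding strand with overlaps allowed. A word began with CCTTT or with TCTTT, and its last letter was C or T in either case. For genes with a summit the start nearest to it is shown, which for RpLP0 and RpS4 is one where the word is present although their canonical start lacks it.
RpL23A (chr3L:1668640-1668669, minus strand, pooled signal 522): aactgcccctcagttttCCTTTTcatttct
RpL13A (chr3R:5624459-5624488, plus strand, pooled signal 483): gtcaacgcaacttccgcctTCTTTCcgtgc
RpLP0 (chr3L:22076077-22076106, plus strand, pooled signal 464): tgccgccgccaacttcacTCTTTCcgttct
RpS4 (chr3L:13041786-13041815, plus strand, pooled signal 436): caccgcccgcaaatctgCCTTTTCCTTTTc
RpL24 (chr2L:13395078-13395107, minus strand, pooled signal 419): gtttccacttccgtttTCTTTTCTTTTcgt
RpL8 (chr3L:2587441-2587470, plus strand, pooled signal 206): aggatgtcttcctctttTCTTTTCTTTTcg
RpL15 (chr3L:27267241-27267270, plus strand, no summit within 500 bp): tgatccaactcattgcttcctTCTTTTgga
RpS26 (chr2L:18443214-18443243, minus strand, no summit within 500 bp): gggtgcgtccacactatttTCTTTCTTTTc
RpS3 (chr3R:23358797-23358826, plus strand, no summit within 500 bp): gcgcgggcacactggccTCTTTCTTTTctg
RpL7 (chr2L:10200989-10201018, plus strand, pooled signal 771): agtgtgaccgtttggccgatggcgcgcgtg
RpS27 (chr3R:25247500-25247529, minus strand, pooled signal 768): tgttcagcattatttagtgcattctcgggc

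Most ribosomal protein genes carried a summit at their start. Of the 88 genes, 61 had a summit within 500 bp of an annotated start of their own (69.3%, exact binomial 95% interval 58.6 to 78.7), beside 13.6% of all protein-coding genes. Each replicate gave nearly the same count on its own. Among its 4434 strongest regions, 57 members had a summit in replicate 1 (13.5% of all genes) and 58 in replicate 2 (13.8%), and 50 had one in both. Among the 1000 strongest peaks of the optimal list 26 members had one, beside 4.41% of all genes. Intervals of shares cover the counting of genes only, and since genes are not replicates the difference from the background was not tested.

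**Figure D1:**
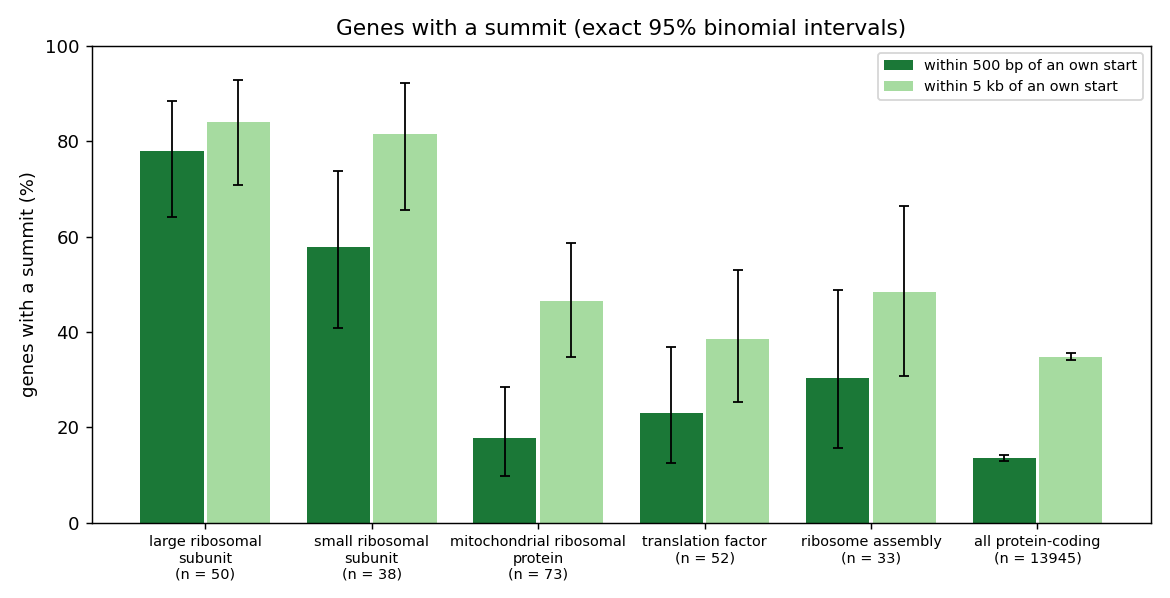
Share of genes (%) with a summit of the optimal list within 500 bp (dark bars) or 5 kb (light bars) of an own start, with exact 95% binomial intervals, for large and small subunit genes, 3 related gene groups and all protein-coding genes. At 500 bp the large subunit genes reach 78% and the small subunit genes 57.9%, while all protein-coding genes stand at 13.6%.

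Genes of the large subunit had summits at a higher share than those of the small subunit, with intervals that overlap. A summit within 500 bp was found at 39 of 50 large subunit genes (78%, exact interval 64.0 to 88.5) and at 22 of 38 small subunit genes (57.9%, 40.8 to 73.7), and the difference was not tested. The order was the same in replicate 1 (36 large and 21 small subunit genes) and in replicate 2 (38 and 20). Within 5 kb the shares lay close together, with 42 of 50 large (84%) and 31 of 38 small subunit genes (81.6%). Without the duplicated genes described further on, the counts within 500 bp were 35 of 44 (79.5%) and 16 of 26 (61.5%). Where a summit was present, the median of the strongest signal was 259 for large and 199 for small subunit genes. The medians were 163 and 125 in replicate 1 (n = 36 and 21), and 109 and 102 in replicate 2 (n = 39 and 21), so the order held in both while the gap was small in replicate 2.

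The strongest peaks lay at RpL7 and RpS27, which both have a close neighbour. A start of Ripalpha lies 30 bp from a start of RpL7, and 1 of Nup37 144 bp from a start of RpS27. At RpL7 (FBgn0005593) the peak at chr2L:10200888-10201219 had a pooled signal of 771, with 355 in replicate 1 and 419 in replicate 2. At RpS27 (FBgn0039300), which encodes a zinc finger protein of the small subunit, the peak at chr3R:25247353-25247678 had 768, with 425 in replicate 1 and 345 in replicate 2. These were ranks 125 and 126 of the optimal list, so no member was among the 100 strongest peaks, while 17 were among the first 500. RpL14 followed with 638, with 290.3 in replicate 1 and 348 in replicate 2. RpL30, whose yeast counterpart binds its own transcript, had 543, with 219 in replicate 1 and 317 in replicate 2. RpL23A, a protein at the exit of the tunnel for the nascent chain, had 522, with 252 in replicate 1 and 271 in replicate 2. Replicate 2 was the higher replicate at these 3 genes, as at RpL7, whereas replicate 1 was higher at RpS27. RpS25, required in other species for initiation at some viral internal entry sites, had 513, with 253 in replicate 1 and 263 in replicate 2. RpL13A had 483, with 235 in replicate 1 and 244 in replicate 2. Also among the 10 strongest members were RpLP0, the base of the stalk that recruits translation factors, and RpL13. RpLP0 had 464, with 253 in replicate 1 and 214 in replicate 2, and RpL13 had 462, with 218 in replicate 1 and 240.5 in replicate 2, so that neither replicate was the higher one throughout.

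The other members with a summit spread down to the threshold of the list. RpL32, used widely as a reference gene in expression studies under the name rp49, had 428, with 219 in replicate 1 and 213 in replicate 2. RpL11, a partner of the 5S ribosomal RNA, had 419.6, with 171 in replicate 1 and 235 in replicate 2. RpL4, which lines the tunnel for the nascent chain, had 231, with 157 in replicate 1 and 77.4 in replicate 2. RpL8 and RpL3 lie near the catalytic centre. RpL8 had 206, with 104 in replicate 1 and 103 in replicate 2. RpL3 had 179, with 69.4 in replicate 1 and 109 in replicate 2. RpL39, another protein of the tunnel, was the lowest of these 4 and had 134, with 64.6 in replicate 1 and 58.8 in replicate 2. The stalk protein RpLP1 had 215, with 142 in replicate 1 and 85.2 in replicate 2. RpS12, which in flies takes part in the competition between Minute and normal cells, was near the median of the whole list. It had 164, with 87.8 in replicate 1 and 81.0 in replicate 2. The gene sta, for the homologue of the laminin receptor protein, had 189, with 67.2 in replicate 1 and 118 in replicate 2, and was one of those with the higher value in replicate 2. Over the 61 genes the lowest signal was 111, the median 235 and the highest 771, beside a median of 192 for the 1830 other genes with a summit at a start.

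**Figure D2:**
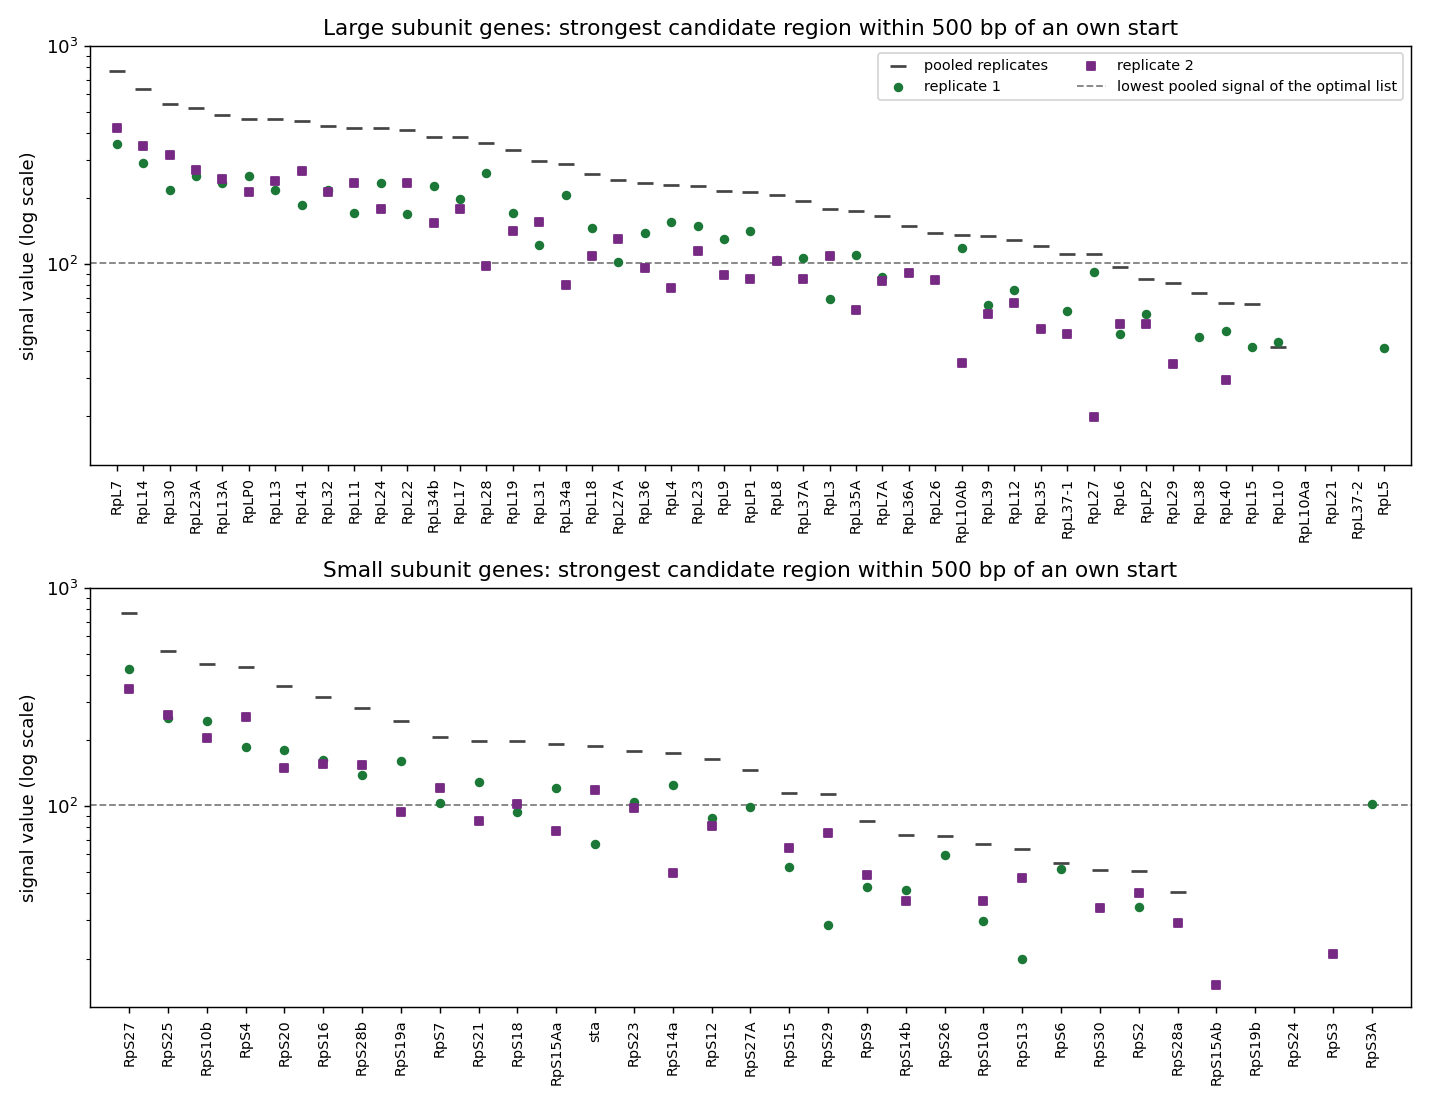
Signal value (log scale) of the strongest candidate region within 500 bp of an own start for large subunit genes (top) and small subunit genes (bottom), without the few not reported here, in the pooled list (dash), replicate 1 (circle) and replicate 2 (square). The dashed line marks the lowest signal of the optimal list, 101, and a gene without a symbol has no candidate region in that list.

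Members near the threshold differed between the replicates. Just inside were RpL27 (111 in the pool), RpL37-1 (111) and RpS29 (113). RpL27 had 92.1 in replicate 1 and 19.9 in replicate 2. RpS29 had 28.3 in replicate 1 and 75.3 in replicate 2, so that 1 replicate held most of the signal at each, and not the same one. RpL37-1 had 61.0 in replicate 1 and 47.9 in replicate 2. Just outside were RpL6, RpS9, RpLP2 and RpL29. RpL6 had 96.9 in the pool, 47.6 in replicate 1 and 52.8 in replicate 2. RpS9 had 85.3, 42.5 and 48.1, and the stalk protein gene RpLP2 85.1, 59.1 and 53.1, in the same order. RpL29 had 82.0 in the pool and 34.7 in replicate 2, with no region in replicate 1. The listed replicate values of the members just outside lay within the range of those just inside, while RpL29 had none in replicate 1.

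Of the 61 members with a summit, 56 had a candidate region in both replicates. Among those with none in replicate 1 were RpL36A (149 in the pool and 90.6 in replicate 2), RpL26 (139 and 84.3) and RpL35 (121 and 50.1). Replicate 2 had none at RpS27A, a ubiquitin fusion gene, with 146 in the pool and 99.1 in replicate 1.

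Of the 27 members without a summit within 500 bp, 17 had a weaker pooled candidate region, with a signal from 40.5 to 96.9 and a median of 66.8. Both replicates had a candidate region at 9 of the 27, replicate 1 alone at 8 and replicate 2 alone at 5. The 5 with none in any list were RpL10Aa, RpL21, RpL37-2, RpS19b and RpS24. The rest had a candidate region in at least 1 list. These lists reach down to weak regions, and the share of all protein-coding genes with a candidate region is not given here. The counts therefore do not show binding at these members.

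Of these genes 5 lie near a centromere or on chromosome 4, beyond the range over which replicate 2 lists candidate regions. RpL5, which binds the 5S ribosomal RNA, has its canonical start at 22536884 on 2L and RpL21 at 22247833, past the last candidate summit of replicate 2 on that arm at 22213686. RpL15 starts at 27267256 on 3L, where the last such summit is at 24352878. RpL38, needed in mouse for the translation of certain Hox messages, starts at 4516458 on 2R (first summit 5679642), and RpS3A at 67207 on chromosome 4 (first summit 404490). Replicate 1 had candidate regions at 4 of the 5, with signals of 41.2 at RpL5, 41.6 at RpL15, 46.1 at RpL38 and 103 at RpS3A. In all, 177 genes lie beyond the range of replicate 2, and 2 of them had a summit in the optimal list.

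A further 12 members had a summit only between 500 bp and 5 kb away, which gave 73 of 88 within 5 kb (82.95%, exact interval 73.4 to 90.1) beside 34.8% of all genes. For 11 of the 12 the start nearest to that summit, among protein-coding genes, belonged to another gene. Among them were Sec13 for RpS3, CG7627 for RpS13, CG3408 for RpS9, Bka for RpS2, CG1774 for RpL6, and ft for RpL40, the other ubiquitin fusion gene. For duplicated genes they included CG5854 for RpS19b, RpS14a for RpS14b, Mgat2 for RpS28a and CG12325 for RpS15Ab. The remaining member was RpLP2, with a summit of signal 139.7 at -2076 bp. With each summit given to its nearest start alone, 62 members had one within 5 kb, 1 more than within 500 bp. No summit lay within 5 kb of 15 members, among them RpL10, RpL10Aa, RpL15, RpL21, RpL29, RpL37-2, RpL38, RpL5, RpS10a, RpS24, RpS26, RpS30, RpS3A and RpS6. RpS6, the target of S6 kinase, had a candidate region of 54.7 in the pool and 51.3 in replicate 1, and none in replicate 2.

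Summits at ribosomal protein genes lay at the start, whereas those at other genes lay mostly farther upstream. Positions are in bp from the annotated start, negative upstream. The nearest summit was at a median of -22 at members (quartiles -49 and 1, n = 61) and at -143 at other genes (quartiles -228 and -57, n = 1830). Within 50 bp of the start were 46 of 61 members (75.4%) and 221 of 1830 others (12.1%), and within 10 bp 14 members (23.0%) and 49 others (2.68%). In replicate 1 alone the medians were -34 for members and -159 for others, with 64.9% and 7.73% within 50 bp. In replicate 2 alone they were -9 and -93, with 67.2% and 19.4% within 50 bp. The replicates placed summits differently, and in each of them the members' median was nearer to the start. Large subunit genes had 32 of 39 summits within 50 bp (82.1%) and small subunit genes 14 of 22 (63.6%), with medians of -22 and -20.5.

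**Figure D3:**
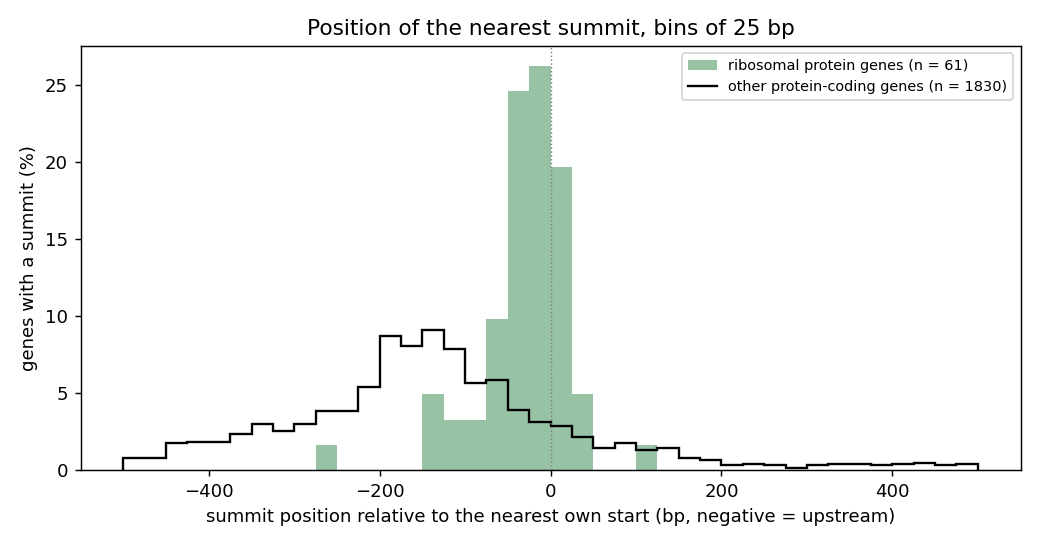
Percentage of genes with a summit by the position of the nearest one, in bins of 25 bp from the own start, for 61 ribosomal protein genes (green area) and 1830 other protein-coding genes (black line). The members gather in the bins around the start, with a median of -22, while the other genes peak upstream of it, with a median of -143.

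The 5 members with summits nearest to the start were RpL8 (-1), RpL31 (1), RpS27 (2), RpS4 (2) and RpS23 (-2). The farthest was RpL10Ab (-262), and the other 60 lay within 150 bp. The replicates did not place all of these alike. In replicates 1 and 2 the strongest summits lay at -33 and 34 at RpL8, at -3 and 189 at RpS23 and at -262 and -39 at RpL10Ab. They lay at -2 and 14 at RpL31, at 1 and -6 at RpS27 and at -8 and 5 at RpS4. By the annotation 34 of the nearest summits lay outside the gene, 25 in its 5′ UTR, 2 in an intron and none in a coding exon. At all 61 genes no start of another protein-coding gene was nearer to the summit than the own start, with a tie between RpS27A and Ip259. Starts of non-coding genes were not considered. Among other genes this held for 1434 of 1830 (78.4%), and over those 1434 the median was -124, with 14.8% within 50 bp. Of the 35 members with the start of a protein-coding neighbour within 500 bp 30 had a summit, and of the 53 without such a neighbour 31. RpL13 shared its summit with Dref, the gene for the factor DREF. The summit of RpL28 at -80 also lay within 500 bp of the initiation factor gene eIF1, which had a nearer one at -98. Where both replicates listed a region, their strongest summits lay a median of 27.5 bp apart at members (n = 56) and 48 bp at others (n = 1676).

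Base composition and the balance of the replicates also differed between members and other genes. The 101 bp around the nearest summit held 45.7% GC at members (SD 7.78, n = 61) and 34.8% at other genes (SD 10.02, n = 1830). Around the canonical start the values were 45.9% for members (SD 6.21) and 43.3% for others (SD 8.60). Members with a summit held 47.2% GC at the start (SD 5.73, n = 61) and those without 43.0% (SD 6.37, n = 27). Replicate 1 held a median of 53.0% of the summed replicate signal at members (quartiles 47.0 and 59.6) and 61.8% at others (50.5 and 71.6). It was the higher replicate at 36 of 56 members (64.3%) and 1286 of 1676 others (76.7%). The part of base composition and of replicate balance in the results was not tested.

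At the canonical start the polypyrimidine word was frequent at members but about as frequent in those with a summit as in those without. With its C from 0 to 15 bases past the canonical start, the word was present at 58 of 88 members (65.9%) and at 287 other genes (2.07%), and its first C lay at a median of 5 in the members. Of the 58 members with the word 40 had a summit (69.0%), and of the 30 without it 21 (70%). Among other genes the shares were 49 of 287 with the word (17.1%) and 13.1% without it. Some of the 21 members counted as without the word held it at the start nearest to the summit. Among them were RpL18, RpL32, RpL34b, RpL37A and RpL7A, besides RpLP0 and RpS4. The reverse was found at RpL13, RpL30, RpL36 and RpS10b, among others. Members without a summit have no such start, so the comparison holds for the canonical start alone. The position of the summit also did not follow the word at the canonical start alone. Its median was -25.5 at the 40 members with the word there and -15 at the 21 without. At the 49 other genes with the word it was -133, with 16.3% within 50 bp. Where the word was present at the start nearest to the summit (45 members), the summit lay at a median of -37 from its first C (quartiles -56 and -6), and upstream of it in 37. Large subunit genes held the word in 35 of 50 cases (70%) and small subunit genes in 23 of 38 (60.5%).

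**Figure D4:**
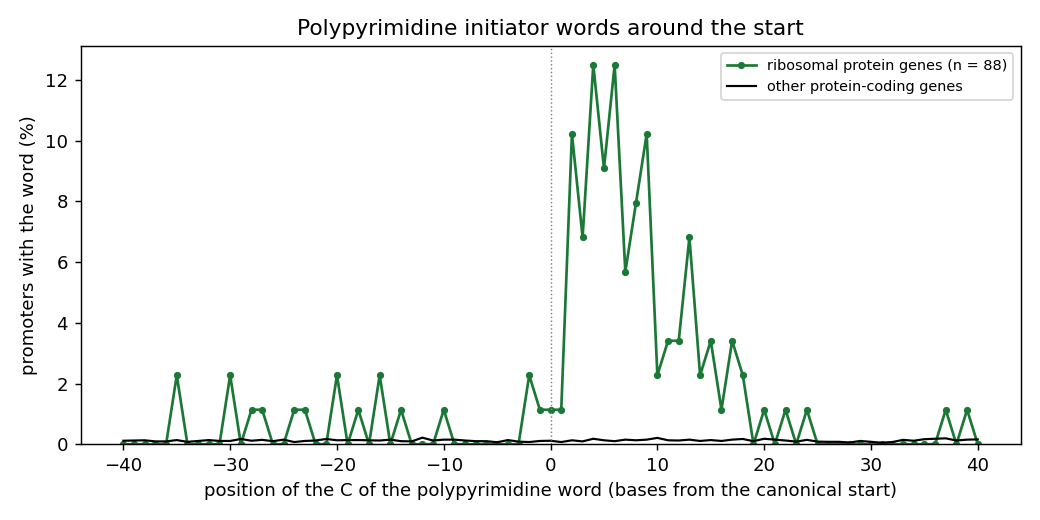
Percentage of promoters in which the C of a polypyrimidine word lies at each position from the canonical start, for 88 ribosomal protein genes (green) and other protein-coding genes (black). The member curve reaches 12.5% at single positions just past the start, while the curve of the other genes stays close to 0 throughout.

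Other promoter words were searched on both strands from 250 bp before to 50 bp after the canonical start. The DREF word TATCGATA, which reads the same on both strands, was present at 26 of 88 members (29.5%) and 8.80% of other genes. The core GGTCACAC of the motif bound by M1BP was present at 13 members (14.8%) and 7.49% of others, and CACGTG, a site of Myc and Max, at 8 members (9.09%) and 4.23% of others. TATAAA was about as frequent in both, at 46.6% of members and 45.3% of others. The T-box core AGGTGTG was found at 2 members (2.27%) and 2.68% of others, so that 59 of the 61 members with a summit lacked these letters in this window. A summit was present at 76.9% of the 26 members with the DREF word and 66.1% of the 62 without it, and at 12.95% of other genes with the word and 13.2% without. For the M1BP core the shares were 84.6% of 13 members with and 66.7% of 75 without, and 16.2% and 12.97% of other genes. For CACGTG they were 75% of 8 members with and 68.8% of 80 without, and 17.1% and 13.04% of other genes. For TATAAA the order was the other way round, with 63.4% of 41 members with and 74.5% of 47 without, and 12.6% and 13.7% of other genes. Both members with AGGTGTG had a summit, as did 59 of the 86 without it (68.6%), beside 11.6% and 13.3% of other genes. None of these differences was tested. A match describes letters in a window, not a bound site.

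The centre of the DREF word lay within 50 bp of the nearest summit at 12 of the 61 members with a summit (19.7%) and 37 of 1830 other genes (2.02%). Among genes with that word within 500 bp of the summit, these were 12 of 22 members and 37 of 221 others. The centre of the M1BP core lay within 50 bp at 6 members (9.84%) and 24 others (1.31%), which were 6 of 17 members and 24 of 226 others with that core within 500 bp. The stretches of 120 bases before the start printed here overlap no annotated exon, and capitals mark the words of the preceding paragraph on either strand. RpS25, RpL34a and RpS14a are shown because the DREF word lies beside the summit of the optimal list, and RpLP1 because it has the M1BP core close before the start. In replicates 1 and 2 the strongest summits lay at -82 and -62 at RpS25 and at -80 and -73 at RpS14a. At RpL34a they lay at -135 and -130, farther from the word.
RpS25 (chr3R:11216288-11216407, minus strand, summit at -63, DREF word from -59, TATAAA from -80): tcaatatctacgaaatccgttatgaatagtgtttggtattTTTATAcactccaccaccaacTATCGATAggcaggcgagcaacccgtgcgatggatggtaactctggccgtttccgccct
RpL34a (chr3R:26059268-26059387, minus strand, summit at -36, DREF word from -43): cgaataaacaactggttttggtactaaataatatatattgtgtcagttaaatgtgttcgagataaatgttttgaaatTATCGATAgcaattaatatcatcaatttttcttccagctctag
RpS14a (chrX:7933622-7933741, plus strand, summit at -80, DREF word from -64): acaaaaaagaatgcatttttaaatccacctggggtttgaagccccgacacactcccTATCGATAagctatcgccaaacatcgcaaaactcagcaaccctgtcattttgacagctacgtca
RpLP1 (chr2L:419832-419951, plus strand, summit at 6, M1BP core from -18): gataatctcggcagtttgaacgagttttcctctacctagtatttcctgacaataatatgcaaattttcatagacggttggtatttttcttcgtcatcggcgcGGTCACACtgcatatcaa

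In duplicated genes 1 copy usually carried the summit. The symbols give 9 pairs, of which 8 had a summit within 500 bp at 1 copy, while RpL34a and RpL34b both had one. Together 10 of the 18 duplicated genes had a summit (55.6%, exact interval 30.8 to 78.5), beside 51 of the 70 single genes (72.9%, 60.9 to 82.8). The intervals overlap, and the difference was not tested. Copies can be nearly identical in sequence and the treatment of reads that match both is not stated, so the values of single copies are uncertain.

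RpL34b had 383, with 228 in replicate 1 and 154 in replicate 2. RpL34a had 286, with 208 in replicate 1 and 80.0 in replicate 2, so replicate 1 was higher at both copies. Both have a neighbour, with a start of Trmt61 229 bp from RpL34a and a start of CG8132 269 bp from RpL34b. The summit of RpL34a was at -36 in the optimal list but at -135 and -130 in replicates 1 and 2. RpS19a had 245, with 161 in replicate 1 and 94.0 in replicate 2, while RpS19b, a copy linked to the germline, had no candidate region in any list. RpS10b had 450.2, with 245 in replicate 1 and 205 in replicate 2. RpS10a had 66.8 in the pool, with 29.9 and 36.8 in replicates 1 and 2. At RpS10 the copies stood in the same order in both replicates. RpS28b had 282, with 139 in replicate 1 and 155 in replicate 2. RpS28a had 40.5 in the pool and 29.0 in replicate 2, with no region in replicate 1. RpS15Aa had 193, with 121 in replicate 1 and 77.0 in replicate 2. RpS15Ab was listed in replicate 2 alone, at 15.2, near the lowest signal of that list. RpL10Ab had 136, with 118 in replicate 1 and 35.3 in replicate 2. RpL37-1 was given among the members near the threshold, and neither RpL10Aa nor RpL37-2 had a candidate region. RpS14a had 175, with 125 in replicate 1 and 49.5 in replicate 2. RpS14b had 73.4 in the pool, with 41.4 and 36.7 in replicates 1 and 2. These copies are neighbours on X, and both replicates listed a region at each copy.

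**Figure D5:**
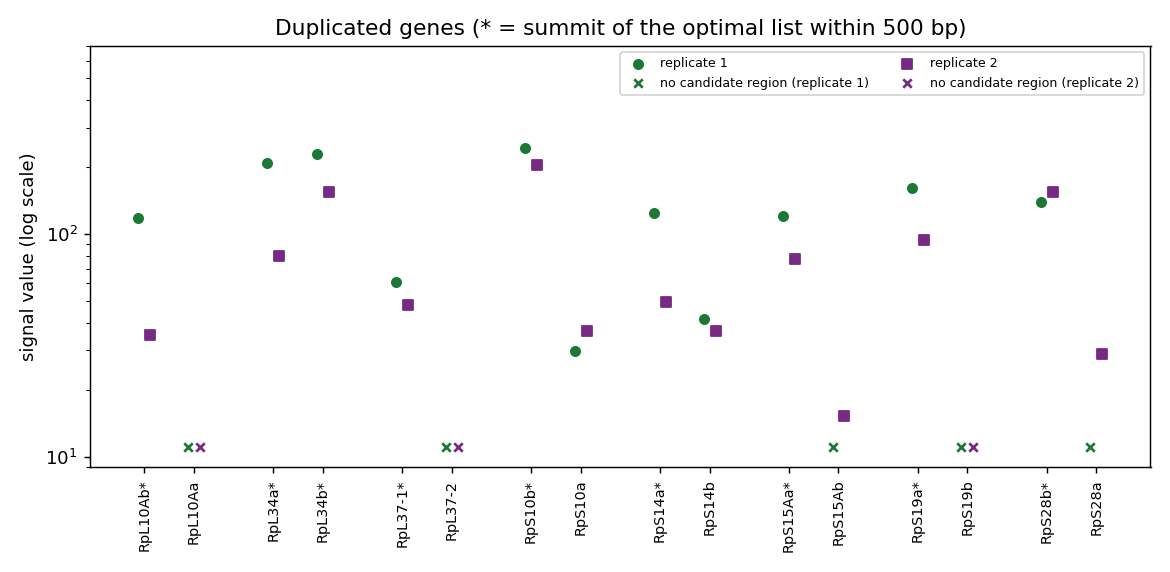
Signal value (log scale) of the strongest candidate region within 500 bp of an own start in replicate 1 (circle) and replicate 2 (square) for the genes of 8 of the duplicated pairs, with crosses where a replicate lists no region and an asterisk at genes with a summit of the optimal list. Both RpL34 copies carry an asterisk, and in each other pair shown 1 copy does.

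By the canonical start, in pairs where the polypyrimidine word and the summit were each at 1 copy alone, both were at the same copy. The word was present at the canonical start of both copies in 4 pairs, among them RpL37, RpS14 and RpS28. In the other 5 it was present at 1 copy. In RpL10A, RpS10, RpS15A and RpS19 that copy was the one with the summit, while in RpL34 both copies had a summit. In each of the 4 pairs with the word at both canonical starts, 1 copy had a summit. The result depends on the start used. At the start nearest to the summit RpL34b also held the word, and RpS10b did not hold it within the same range of positions. The starts of 3 pairs are shown to set these kinds side by side, RpS14 with the word at both copies and RpS19 and RpL10A with it at 1, and capitals mark the word as before.
RpS14a (chrX:7933727-7933756, plus strand, pooled signal 175): ttgacagctacgtcaacctTCTTTTttgat
RpS14b (chrX:7934883-7934912, plus strand, no summit within 500 bp): cagctgtgttgtttttgcctTCTTTTtttc
RpS19a (chrX:16637879-16637908, plus strand, pooled signal 245): ccaacttcacgcgccttgtTCTTTTttccg
RpS19b (chr3R:23933516-23933545, minus strand, no summit within 500 bp): acttgccaatcgtccattttgactaaagtc
RpL10Ab (chr3L:11822836-11822865, plus strand, pooled signal 136): ctaaaaaccgattttcacttCCTTTCtaaa
RpL10Aa (chr3R:15037351-15037380, plus strand, no summit within 500 bp): tacaatacatttcaaattttgtgcttgtag

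Of the 5 genes with a symbol ending in -like, which are no members, 1 had a summit. RpLP0-like had it at -78 bp, with 187 in the pool, 166 in replicate 2 and no region in replicate 1. RpL24-like had a pooled candidate region of 34.6 and 25.4 in replicate 2, and RpL22-like, RpL7-like and RpS28-like had none. Their counterparts RpLP0, RpL24, RpL22 and RpL7 had summits, with pooled signals of 464, 419, 411 and 771.

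By arm, summits within 500 bp were present at 13 of 15 members on X, beside 300 of all 2196 protein-coding genes there. They were present at 11 of 14 members on 3L (400 of 2739 genes), 11 of 17 on 2L (368 of 2657), 14 of 22 on 3R (459 of 3421) and 12 of 19 on 2R (362 of 2852). The single member on chromosome 4, RpS3A, had none, beside 2 of 80 genes there.

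Against the 69.3% of ribosomal protein genes (exact interval from 58.6%), related groups had lower shares, a difference that was not tested. A summit within 500 bp was present at 13 of 73 mitochondrial ribosomal protein genes (17.8%, exact interval 9.84 to 28.5), 12 of 52 translation factor genes (23.1%, 12.5 to 36.8) and 10 of 33 ribosome assembly genes (30.3%, 15.6 to 48.7). Their median positions were -145, -35.5 and -190, with 1 of 13, 5 of 12 and 1 of 10 summits within 50 bp. The strongest peaks within 500 bp of translation factor genes were at eIF6 (878, with 502 in replicate 1 and 384 in replicate 2), eIF4EHP (679, with 514 and 161), eEF1gamma (477, with 300.1 and 183) and eIF1 (358, with 261 and 97.4). The eIF1 value was that of the peak at RpL28, whose summit was nearer to RpL28. The summit nearest to eIF1 was another one, at -98. The polypyrimidine word was present at 12 of 52 translation factor genes (23.1%), 1 of 73 mitochondrial ribosomal protein genes (1.37%) and 1 of 33 assembly genes (3.03%).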

How the data were processed

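Peak lists of 2 biological replicates of embryos with tagged org-1 were analysed. Per the file descriptions, the authors made candidate regions from each library's alignment and a control alignment, and an optimal list thresholded on the irreproducible discovery rate. The aligner and peak caller were not given in the sources used here. The deposited signal values rank regions within a list, and the deposited −log10 q values were not used. Only the dm6 lists were used. Gene models came from Ensembl release 115 (BDGP6.54), sequence from genome release 6. A gene counted when a summit (region start plus offset) lay within 500 bp or 5 kb of a start of its protein-coding transcripts. Replicate values are the strongest candidate region within 500 bp. Python 3.11.15 with numpy 2.4.6, pandas 2.3.3 and scipy 1.17.1 was used, and the placement of summits was tested on simulated data. Members and lists were chosen with earlier results of these data known. Some members are not reported here by name but are in all counts. Any other member could be named, and given in full were the 10 strongest, the 5 nearest to a start, the 4 on each side of the threshold, the duplicated and -like genes, and up to 4 translation factors by signal. Of the listed symbols 52 of 53 translation factors and 33 of 37 assembly genes matched the annotation. Alternatives covered the replicate, the threshold, the window, the start and the assignment of shared summits. No test over samples is possible with 1 group.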

Additional observations from a re-analysis of the deposited data

How the results depend on the processing

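The count of members with a summit within 500 bp was 57 to 58 with 1 replicate left out (66 to 69 within 5 kb, 36 to 38 large and 20 to 21 small subunit genes). Of all protein-coding genes, 13.5% and 13.8% had one in replicates 1 and 2 alone, and 34.5% and 34.6% within 5 kb. The count of members was 60 and 62 with windows of 250 and 1000 bp, and 73 among 2 times as many pooled regions. The shares of all genes at those settings are not given here, so these counts do not show the excess over the background. With the 1000 strongest peaks the counts of members fell to 26 within 500 bp, 32 within 5 kb, 19 large subunit and 7 small subunit genes. This follows from the smaller list, in which 4.41% of all genes had a summit within 500 bp and 12.2% within 5 kb. The median signal of members was then 432 and the median distance from the start 37.5 bp. That distance was 26.5 to 36 bp with 1 replicate left out and 38 bp with the canonical start alone. The median signal was 109 to 146 in single replicates, whose scale is lower, and 206 among 2 times as many pooled regions. Pairs with a summit at both copies numbered 3 among those regions and 2 with a window of 1000 bp. The position kept its sign in every alternative, from -37 to -9 bp. No paired analysis was possible because there is 1 group. Depth is unknown from these lists, so no limit of detection can be given for the members without a summit.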
